A study of Mus musculus with 108 samples.

Results

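Macrophages labelled BMDM, which the series' design text describes as monocyte-derived, were compared with microglia sorted from the same kind of tumour-bearing brain after whole-brain radiotherapy of 5 fractions of 2 Gy, in cells labelled day 3. The comparison holds 8 of the 108 libraries of the series, 4 of BMDM and 4 of microglia, chosen by their labels alone. All mice were Balb/C athymic nude animals (CAnN.Cg-Foxn1nu/Crl), a strain that lacks a thymus, and the cells came from brains carrying metastases of lung tumour cells. The unirradiated groups set beside them held 10 libraries of BMDM and 10 of microglia, 5 of each at the tumour stage labelled small and 5 at the stage labelled large, whereas the irradiated groups are labelled as not stratified by stage. Later and other schedules enter at the end, with 4 libraries of each cell type at 5x2 Gy day 5, 3 of each at 5x2 Gy day 10 and 3 of each at 1x10 Gy day 3. Neither the start of the count of days nor the number of animals behind each group is given in the labels, so that the spread entering the p-values is that of these libraries and may be technical.

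Microglia settle in the brain before birth and renew themselves there, and their identity depends on TGF-beta signals and on transcription factors such as Sall1. Monocyte-derived macrophages enter from the blood, guided by the chemokine receptor Ccr2 and by the alpha4 integrin Itga4, and often carry more of the MHC class II molecules that present antigen to helper T cells. Ionising radiation breaks DNA and activates the transcription factor p53, which induces genes of cell cycle arrest, such as Cdkn1a, and of cell death. The question here is which differences between the resident and the recruited lineage were found shortly after radiotherapy, and whether their size differed from that without irradiation.

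Total counts were 11687712 to 15267312 in the BMDM libraries and 9796784 to 14973034 in the microglia libraries. Counts were detected for 30967 genes in microglia library 1 and for 17967 to 21327 genes in each of the other 7 libraries. The share of counts in ribosomal protein genes was 1.06% in BMDM library 4 and 1.03% in microglia library 4, against 0.30 to 0.47% in the other 6. Microglia library 4 stood apart for the transcripts of the other lineage. Of the 2752 genes that were higher in BMDM without irradiation, it was the highest of the 4 microglia libraries for 1390 (50.5%), although it was the highest for 25.4% of all genes tested. For many results that rest on such genes, values without that library are therefore given as well. In bulk libraries of sorted cells, fewer cells of a type and less RNA per cell cannot be told apart. Levels below are in CPM, read counts scaled to library size, and each list of values runs from library 1 to library 4. Values in parentheses with a ± sign, and differences given as such, are log2 fold changes of BMDM over microglia with their SE, and adjusted p-values are those of the test named in the next paragraph.

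At 5x2 Gy day 3 the 2 lineages differed in 2970 of 19382 genes tested (15.3%), 1536 of them higher in BMDM (7.92%) and 1434 lower (7.4%), at an adjusted p under 0.05 in edgeR's quasi-likelihood test with Benjamini-Hochberg adjustment. The counts of called list members given below are read against these shares. A change of 2-fold or more was seen for 1096 of the higher and 1135 of the lower genes. Without irradiation 5345 genes differed (27.6%), 2752 higher (14.2%) and 2593 lower (13.4%), in a comparison of 10 against 10 libraries that shares none with day 3. The 2 sets had 2597 genes in common, and 2596 of these differed in the same direction, 1423 higher and 1173 lower in BMDM. Thus 87.4% of the genes called at day 3 were called the same way without irradiation, and 48.6% of those called without irradiation were called the same way at day 3. Of the 2748 genes called without irradiation alone, 2661 (96.8%) kept their sign at day 3. The count of lower genes was 920 when BMDM library 1 was left out and 930 when BMDM library 2 was.

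The fold changes of the 2 comparisons had a Pearson correlation across genes of 0.574 over all genes tested and 0.891 over the 5718 called in either, given as a description, since genes are not independent replicates. The median log2 fold change over all genes was -0.20 at day 3 and -0.02 without irradiation. In the 8 libraries fitted alone the day 3 median was 0.19 higher, and 0.20 higher when genes averaging under 10 CPM were dropped, so that small negative fold changes of a list are read against that median. Without microglia library 1, which had the most genes detected at day 3, the median was -0.006. That library was the highest of its group for 40.5% of all genes tested. A direct test of whether the lineage difference at day 3 departed from that without irradiation called 1 gene (0.00516%), the p53 target Cdkn1a. At an unadjusted p under 0.05 the same test of edgeR held 1146 genes (5.91%), 994 of them (5.13%) with a lower BMDM to microglia ratio at day 3 and 152 (0.784%) with a higher one. Over all genes the median of this difference was -0.11, with 11487 negative and 7895 positive, against which that imbalance is read. Leaving out microglia library 1 of day 3 gave a median of 0.008, and leaving out the libraries with over 30000 genes detected gave 0.02.

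**Figure D1:**
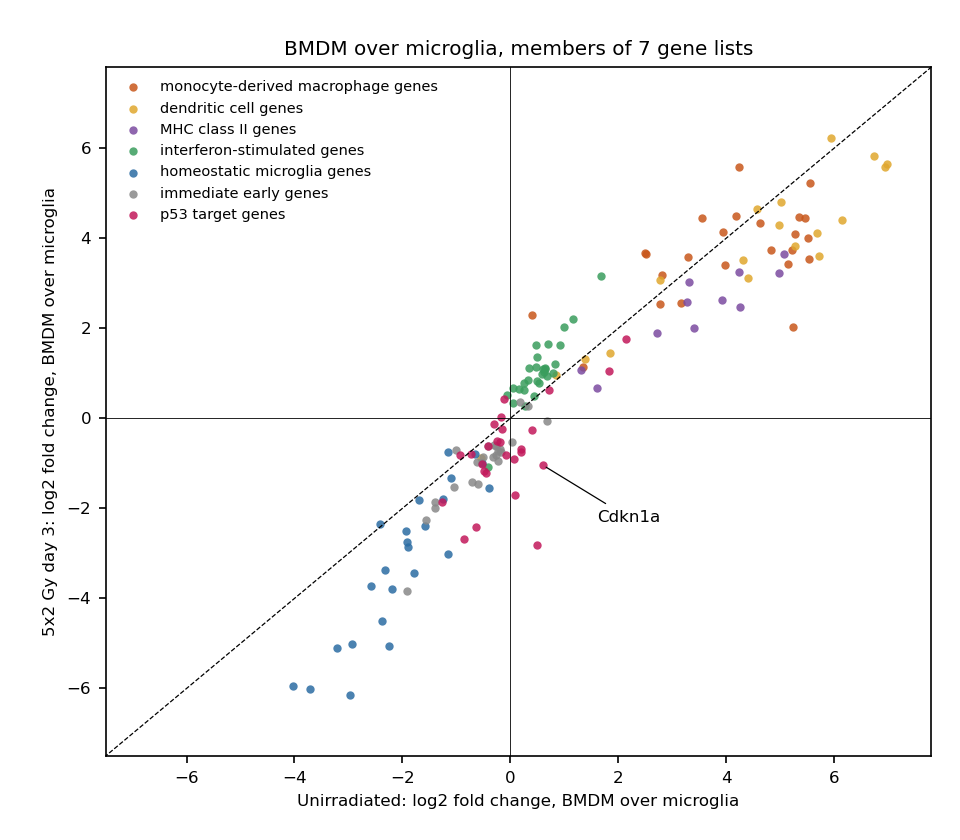
Log2 fold change of BMDM over microglia at 5x2 Gy day 3 (vertical) against that without irradiation (horizontal), 1 point per gene for the tested members of 7 gene lists, with the dashed line marking equal values. Homeostatic microglia genes lie below 0 on both axes and mostly below the line, monocyte-derived macrophage, dendritic cell and MHC class II genes lie above 0 on both except for 1 dendritic cell gene, and Cdkn1a lies right of 0 and below it.

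Homeostatic microglia genes stayed far apart between the lineages. Of 24 such genes, all tested, 23 were lower in BMDM at day 3 and none higher, with a median log2 fold change of -2.94, against -1.92 without irradiation, where 23 were also lower. In all 24 the BMDM libraries lay below the microglia libraries, where 12.9% of all genes tested did so. The summed level of the list was 5866 to 8695 CPM in BMDM and 23743 to 32548 CPM in microglia. Without irradiation it was 6095 to 16783 CPM in BMDM (median 9374) and 19682 to 37873 CPM in microglia (median 27954). The part of the wide BMDM range without irradiation in the larger median at day 3 was not tested. The difference between the 2 comparisons was negative for 22 of the 24, against 11487 of all 19382 genes tested. It had an unadjusted p under 0.05 for 15, against 5.91% of all genes, and none of the 24 passed after adjustment.

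P2ry12, the purinergic receptor with which microglial processes sense ATP (ENSMUSG00000036353, chromosome 3, 59216272 to 59262871), was at 88.3, 209, 212 and 100 CPM in the BMDM libraries and at 2209, 1983, 2449 and 1442 CPM in the microglia libraries. The groups do not overlap, BMDM libraries 1 and 4 are the low ones of their group, and microglia library 4 is the lowest of its own. The log2 fold change was -3.73 ± 0.44 (SE, adjusted p = 3.01e-07), against -2.58 without irradiation, and the 2 differed by -1.15 ± 0.47 (adjusted p = 0.832). Sall1, a transcription factor that maintains microglial identity (ENSMUSG00000031665, chromosome 8, 89027235 to 89044162), was at 1.59, 4.73, 12.4 and 0.717 CPM in BMDM and at 164, 146, 202 and 119 CPM in microglia. The BMDM libraries spread over more than a factor of 10, with library 3 the highest, and stay below every microglia library. The log2 fold change of Sall1 was -5.02 ± 0.83 (adjusted p = 2.56e-05), and -6.02 without BMDM library 3.

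Other members were lower as well. Bin1, an adaptor of membrane bending, was at 107, 117, 168 and 109 CPM in BMDM against 569, 686, 730 and 630 CPM in microglia (-2.38 ± 0.29, adjusted p = 6.54e-07). Gpr34, a receptor for lysophosphatidylserine, reached 207 CPM at most in BMDM and 736 CPM at least in microglia (-2.85 ± 0.38, adjusted p = 1.35e-06). Siglech, a sialic acid receptor of microglia and plasmacytoid dendritic cells, was at 86.7, 110, 75.1 and 11 CPM in BMDM against 1096, 836, 1108 and 866 CPM in microglia (-3.79 ± 0.54, adjusted p = 3.6e-06). Tmem119, a surface protein by which microglia are told from other macrophages, held 220 to 563 CPM in BMDM against 1505 to 2302 CPM in microglia, so the transcript was lower but far from absent in the BMDM libraries (-2.34 ± 0.40, adjusted p = 3.56e-05). Tgfbr1, the TGF-beta receptor and the only member outside the calls, was at 528 to 812 CPM in BMDM and 837 to 1446 CPM in microglia, groups that do not overlap either (-0.74 ± 0.32, adjusted p = 0.11). With the 8 libraries fitted alone its adjusted p was 0.0317.

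The genes with the largest negative fold changes were nearly silent in BMDM. Ephb3, an ephrin receptor kinase, was at 0, 0.253, 0.143 and 0 CPM in BMDM and at 14.4, 5.58, 9.73 and 12.2 CPM in microglia (-6.64 ± 0.96, adjusted p = 4.04e-06). Lag3, better known as a checkpoint receptor of T cells, was at 0.718, 1.27, 2.0 and 0.0652 CPM in BMDM and at 50.3, 161, 38.2 and 11.4 CPM in microglia, among which library 2 is high and library 4 low. Its log2 fold change was -6.01 ± 0.81 (adjusted p = 1.5e-06), and -5.04 without microglia library 2. Slc2a5, a fructose transporter, reached 2.70 CPM in BMDM against 63.1 to 98.5 CPM in microglia (-5.94 ± 0.92). The transcription factor Sall3, the RNA-binding protein Nova1, Csmd3, the nicotinic receptor chaperone Ric3, Ccdc85a, the synaptotagmin Syt6 and the small heat shock protein Hspb3 had fold changes of -6.58 to -5.79, and none exceeded 1.21 CPM in any BMDM library. BMDM library 3 held the most Sall3 and Nova1, and without it their log2 fold changes were -8.63 and -8.19. Without BMDM library 2 they were -7.44 for Ephb3 and -6.52 for Ccdc85a. For Ephb3, Nova1 and Sall3 only a few counts then remained in BMDM, so that these fitted values are imprecise.

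Genes of recruited macrophages were higher in BMDM. Of 24 monocyte-derived macrophage genes, all tested, 22 were higher in BMDM at day 3 and none lower, with a median log2 fold change of 3.70, against 23 higher and a median of 4.22 without irradiation. The groups did not overlap for 23 of the 24, as for 10.9% of all genes in that direction. The summed level of the list was 11430, 13526, 10535 and 15370 CPM in BMDM and 2126, 3453, 2104 and 4257 CPM in microglia, with microglia library 4 the highest of its group. With that library left out, 23 were higher and the median was 5.62, and 21 were higher without microglia library 2 or 3. Without irradiation the sum reached 5579 CPM in the highest microglia library and was 5800 CPM in the lowest BMDM library.

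Itga4, the alpha4 integrin that resident microglia lack (ENSMUSG00000027009, chromosome 2, 79255426 to 79333123), was at 291, 235, 152 and 156 CPM in BMDM and at 11, 5.58, 6.22 and 24.7 CPM in microglia. No BMDM library came within reach of the highest microglia library, number 4. Itga4 had a log2 fold change of 4.13 ± 0.52 (adjusted p = 7.72e-07), close to the 3.94 without irradiation (difference 0.19). Ccr2 (ENSMUSG00000049103, chromosome 9, 124101950 to 124113557) was at 1049, 1549, 1620 and 1380 CPM in BMDM and at 4.88, 15.8, 11.4 and 221 CPM in microglia. Microglia library 4 again stands far above its group, though well below every BMDM library. For Ccr2 the log2 fold change was 4.47 ± 0.94 (adjusted p = 0.000574), and 7.03 without microglia library 4, where Itga4 reached 4.78.

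The lectin receptor Clec12a was at 221, 233, 154 and 150 CPM in BMDM against 4.56, 1.74, 0.797 and 12.8 CPM in microglia (5.23 ± 0.69, adjusted p = 1.36e-06). Itgal, the alpha chain of the integrin LFA-1, was at 205, 98.2, 78.0 and 154 CPM in BMDM against 4.71 to 15.4 CPM in microglia (3.67 ± 0.50, adjusted p = 1.78e-06). For both, the lowest BMDM library lay at least several times above the highest microglia library. Ms4a4c, a membrane protein of monocytes, was at 391 to 580 CPM in BMDM against 28.4 to 73.4 CPM in microglia (3.18 ± 0.41, adjusted p = 1.07e-06). Ly6c2, the surface marker of inflammatory monocytes, was low everywhere, at 15.3, 11, 8.28 and 17.3 CPM in BMDM and at 0.207, 0.348, 0.0797 and 1.53 CPM in microglia (4.50 ± 0.97, adjusted p = 0.000749). Leaving out microglia library 4 gave 6.35 for Clec12a and 5.88 for Ly6c2.

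The 2 members outside the calls are S100a4, a calcium-binding protein of motile cells, and Fn1, the matrix protein fibronectin. S100a4 was at 1.51, 0.507, 0.214 and 2.41 CPM in BMDM and at 0, 0, 0 and 1.06 CPM in microglia, so that 1 microglia library alone held counts (2.03 ± 1.10, adjusted p = 0.222). Without that library, number 4, no microglia library held a count and the adjusted p was 0.0016, without BMDM library 4 the log2 fold change was 1.39 (adjusted p = 0.481), and a block for the same-numbered day 3 libraries gave 3.66 (adjusted p = 0.0338). Fn1 was at 565, 615, 483 and 1502 CPM in BMDM and at 79.7, 365, 53.5 and 147 CPM in microglia, without overlap, and BMDM library 4 and microglia library 2 were the high ones. Its log2 fold change of 2.29 ± 1.06 had an adjusted p of 0.147, which was 0.0226 in the 8 libraries alone and 0.0358 with a block for replicate numbers (2.57). Without microglia library 2 it was 3.08 (adjusted p = 0.0941).

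**Figure D2:**
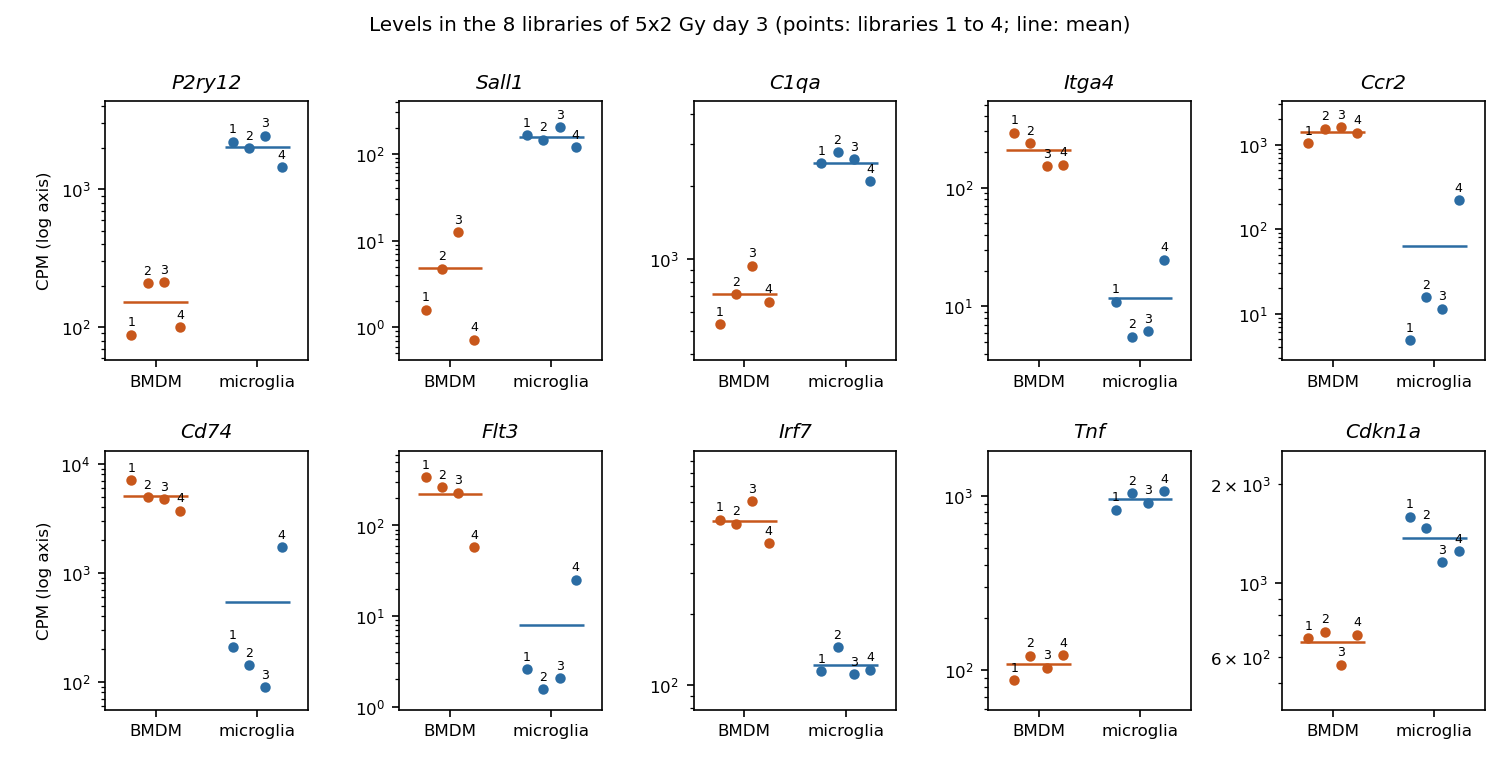
CPM on log axes of 10 genes in the 4 BMDM and 4 microglia libraries of 5x2 Gy day 3, with points numbered by library and lines at the group means. P2ry12, Sall1, C1qa, Tnf and Cdkn1a are lower in BMDM and Itga4, Ccr2, Cd74, Flt3 and Irf7 higher, and microglia library 4 lies above the other microglia libraries for Ccr2, Cd74 and Flt3.

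Transcription factors of macrophage identity split both ways. Of 24 tested, 5 were higher in BMDM, 6 lower and 13 not called. Beside Sall1 and Sall3, Mef2c, a factor of the microglial enhancer programme, was lower at 193, 275, 288 and 151 CPM in BMDM against 601, 432, 580 and 421 CPM in microglia (-1.17 ± 0.21, adjusted p = 9.31e-05). Bhlhe41, a repressor expressed in microglia, was at 4.86 to 16.8 CPM in BMDM against 56.4 to 82.4 CPM in microglia (-2.68 ± 0.59, adjusted p = 0.000993). Smad3, which carries TGF-beta signals to the nucleus, was at 26.3 to 34.3 CPM in BMDM against 108, 123, 102 and 58.3 CPM in microglia (-1.73 ± 0.50, adjusted p = 0.0133, and 0.0526 with a block for replicate numbers).

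In the other direction stood Ahr, the aryl hydrocarbon receptor, at 117, 89.4, 81.3 and 71.0 CPM in BMDM against 0.726, 0.261, 0.319 and 17.1 CPM in microglia (4.24 ± 0.80, adjusted p = 0.000157). Runx3, a factor of dendritic cells and lymphocytes, was at 118, 75.4, 95.8 and 113 CPM in BMDM against 0.622, 0.523, 1.04 and 16.5 CPM in microglia (4.39 ± 0.85, adjusted p = 0.000222). Both were close to 0 in microglia libraries 1 to 3 and were carried in that group by library 4, without which the log2 fold changes were 7.69 and 7.08. Nr1h3, the sterol sensor LXR alpha, was at 26.1 to 48 CPM in BMDM against 1.56, 3.48, 2.39 and 8.17 CPM in microglia (3.17 ± 0.58, adjusted p = 0.000107, and 3.83 without microglia library 4). Zbtb46, a factor of classical dendritic cells, was at 127, 68.6, 70.1 and 12.6 CPM in BMDM against 11.1, 5.84, 3.59 and 12.8 CPM in microglia, where the lowest BMDM and the highest microglia library, both number 4, meet (3.06 ± 0.58, adjusted p = 0.000157).

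Transcripts of the MHC class II pathway remained a difference between the lineages. Of 11 genes of the pathway, all tested, 8 were higher in BMDM at day 3 (median 2.59), where all 11 were higher without irradiation (median 3.40). The summed level of the list was 10406, 7450, 7047 and 5927 CPM in BMDM and 498, 424, 364 and 2892 CPM in microglia, with library 4 again the highest of the microglia. Leaving that library out gave a count of 8 and a median of 4.38. The count was 6 without microglia library 1, 2 or 3 and 7 without BMDM library 1, where the median was 1.95, or BMDM library 4. The genes not called were H2-Eb2, H2-DMb1 and H2-Ob.

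Cd74, the invariant chain that escorts class II molecules (ENSMUSG00000024610, chromosome 18, 60803848 to 60812652), was at 7049, 4928, 4736 and 3721 CPM in BMDM and at 206, 142, 89.2 and 1724 CPM in microglia. Every BMDM library exceeded every microglia library, although microglia library 4 lay closer to the BMDM libraries than to its own group in ratio. The log2 fold change was 3.24 ± 0.67 (adjusted p = 0.000467), against 4.23 without irradiation, and 5.13 without microglia library 4. H2-Eb1, which encodes a class II beta chain, was at 1519, 1491, 1285 and 1150 CPM in BMDM and at 13.6, 16.5, 14.8 and 538 CPM in microglia (3.22 ± 0.86, adjusted p = 0.00692). H2-Aa, a class II alpha chain, was at 205, 118, 103 and 160 CPM in BMDM and at 5.08, 5.14, 3.19 and 91.6 CPM in microglia (2.47 ± 0.73, adjusted p = 0.0151). In both genes 3 microglia libraries are low and alike and the fourth is high.

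Without microglia library 4 the log2 fold changes were 6.51 for H2-Eb1 and 5.04 for H2-Aa. With another microglia library left out, H2-Aa had an adjusted p of 0.0633, 0.0624 and 0.0625 (libraries 1, 2 and 3) and log2 fold changes of 2.10 to 2.13, and in the 8 libraries alone its adjusted p was 0.093 and that of H2-Eb1 0.0717. H2-DMa, part of the peptide editor of class II, had the smallest spread, at 383 to 455 CPM in BMDM against 140 to 225 CPM in microglia (1.08 ± 0.22, adjusted p = 0.000423). H2-DMb2, of the same editor, was at 175, 87.3, 115 and 66.6 CPM in BMDM against 30.2, 14.4, 13.7 and 61.0 CPM in microglia, and H2-Oa, which restrains the editor, at 46.2, 60.0, 40.1 and 19.1 CPM in BMDM against 2.80, 2.96, 2.71 and 18.6 CPM in microglia. In these 2 genes microglia library 4 almost reached BMDM library 4. Their log2 fold changes were 1.90 ± 0.41 and 2.59 ± 0.56 (adjusted p = 0.000739 and 0.000789), and 2.52 and 3.87 with that microglia library left out.

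Class II genes are controlled together through short promoter elements, among them the Y box, which holds a reversed CCAAT motif. The 120 bases before the RefSeq starts of H2-Aa (chr17:34287824-34287943, minus strand), H2-Eb1 (chr17:34305747-34305866, plus strand), H2-DMb2 (chr17:34145129-34145248, plus strand) and H2-Oa (chr17:34092259-34092378, plus strand) on GRCm38.p6 are printed 5′ to 3′ on the strand of the gene, with GATTGG or its reverse complement CCAATC in capitals, to show what members that were higher together have in common. RefSeq and GENCODE place the starts of H2-DMb2 and H2-Oa differently.
H2-Aa: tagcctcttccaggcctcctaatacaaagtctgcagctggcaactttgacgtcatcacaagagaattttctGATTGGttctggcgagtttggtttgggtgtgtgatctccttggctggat
H2-Eb1: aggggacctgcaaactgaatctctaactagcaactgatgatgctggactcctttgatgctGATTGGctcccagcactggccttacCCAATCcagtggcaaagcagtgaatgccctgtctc
H2-DMb2: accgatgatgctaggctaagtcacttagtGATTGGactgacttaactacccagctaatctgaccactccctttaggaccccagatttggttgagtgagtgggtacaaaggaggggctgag
H2-Oa: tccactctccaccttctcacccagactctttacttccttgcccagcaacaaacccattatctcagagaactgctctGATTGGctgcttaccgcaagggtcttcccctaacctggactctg
In the 250 bases before the start, on either strand, the motif was found in 8 of the 8 class II genes with a promoter entry, out of 11 listed, and in 16.6% of 27025 genes. A match is a run of letters and does not show that a factor was bound, and its part in the lineage difference was not tested.

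Dendritic cell genes were higher in BMDM as well. Of 18 tested, 15 were higher in BMDM at day 3 (median 3.98), against 17 without irradiation (median 5.01), and without microglia library 4 the count was 17 and the median 6.18. The count was 13 without BMDM library 1 or microglia library 1 or 2 and 12 without microglia library 3. Their summed level was 5264, 3244, 2291 and 954 CPM in BMDM and 299, 410, 247 and 520 CPM in microglia, so that BMDM library 1 held more than 5 times the level of BMDM library 4. Flt3, the receptor on which dendritic cell development depends (ENSMUSG00000042817, chromosome 5, 147330741 to 147400489), was at 339, 265, 231 and 57.8 CPM in BMDM and at 2.59, 1.57, 2.07 and 25.2 CPM in microglia. The groups do not overlap, with BMDM library 4 the low one and microglia library 4 the high one. Flt3 differed by 4.80 ± 0.70 (adjusted p = 4.71e-06), and 6.75 without microglia library 4.

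Ccr7, which leads dendritic cells to lymph nodes, was at 1665, 779, 442 and 277 CPM in BMDM and at 7.36, 4.88, 1.04 and 48.8 CPM in microglia (5.66 ± 1.04, adjusted p = 0.000112). Xcr1, a chemokine receptor of cross-presenting dendritic cells, was at 118, 67.3, 61.3 and 10.2 CPM in BMDM against 1.39 to 3.63 CPM in microglia (4.66 ± 0.73, adjusted p = 1.27e-05). Like Flt3, both were highest in BMDM library 1 and lowest in BMDM library 4. Traf1, an adaptor of TNF receptors, was at 478, 302, 136 and 98.2 CPM in BMDM against 2.95 to 35.6 CPM in microglia (4.29 ± 0.69, adjusted p = 1.92e-05), and Cacnb3, a calcium channel subunit of mature dendritic cells, at 193, 58.5, 61.9 and 21.6 CPM in BMDM against 0.478 to 2.90 CPM in microglia (5.82 ± 0.93, adjusted p = 1.62e-05). Itgae, the integrin CD103, was at 202, 151, 122 and 61.0 CPM in BMDM against 4.25, 2.53, 1.67 and 28.6 CPM in microglia (3.84 ± 0.65, adjusted p = 3.84e-05). Leaving out BMDM library 1 gave 5.02 for Ccr7 and 5.04 for Cacnb3, and leaving out microglia library 4 gave 7.49 for Ccr7, 5.59 for Traf1 and 5.58 for Itgae.

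Several of the genes with the largest positive fold changes were also highest in BMDM library 1. Ace, the angiotensin-converting enzyme, was at 78.9, 42.8, 13.2 and 8.54 CPM in BMDM and at 0.519, 0.348, 0.239 and 0 CPM in microglia (7.07 ± 1.34, adjusted p = 0.000166). Cd300e, an activating receptor of monocytes, was at 155, 89.0, 19.0 and 11.6 CPM in BMDM and at 0.133 to 1.2 CPM in microglia (6.74 ± 1.08, adjusted p = 1.72e-05). Ccl22, a chemokine of mature dendritic cells that attracts regulatory T cells, was at 382, 55.0, 58.1 and 19.8 CPM in BMDM and at 1.35, 0.348, 0.558 and 4.38 CPM in microglia (6.22 ± 1.03, adjusted p = 2.88e-05). BMDM library 1 is the highest in all 3 genes and library 4 the lowest.

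Adora2a, an adenosine receptor, Cd200, the ligand of an inhibitory myeloid receptor, Tlr11, a Toll-like receptor of the mouse, Nudt17, the lymphoid adaptor Gcsam, Gramd2 and the actin-severing protein Scin had fold changes of 5.82 to 6.73, with at least 3.06 CPM in each BMDM library and at most 1.46 CPM in each microglia library. With BMDM library 1 left out the log2 fold changes were 6.37 for Ace, 5.99 for Cd300e, 5.95 for Adora2a, 5.66 for Cd200, 5.61 for Nudt17 and 4.72 for Ccl22. Microglia library 1 held the most Tlr11, Gramd2 and Scin of its group, and without it they were 7.03, 7.59 and 6.64. Leaving out microglia library 4 gave 7.44 for Ccl22 and 6.87 for Gcsam.

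**Figure D3:**
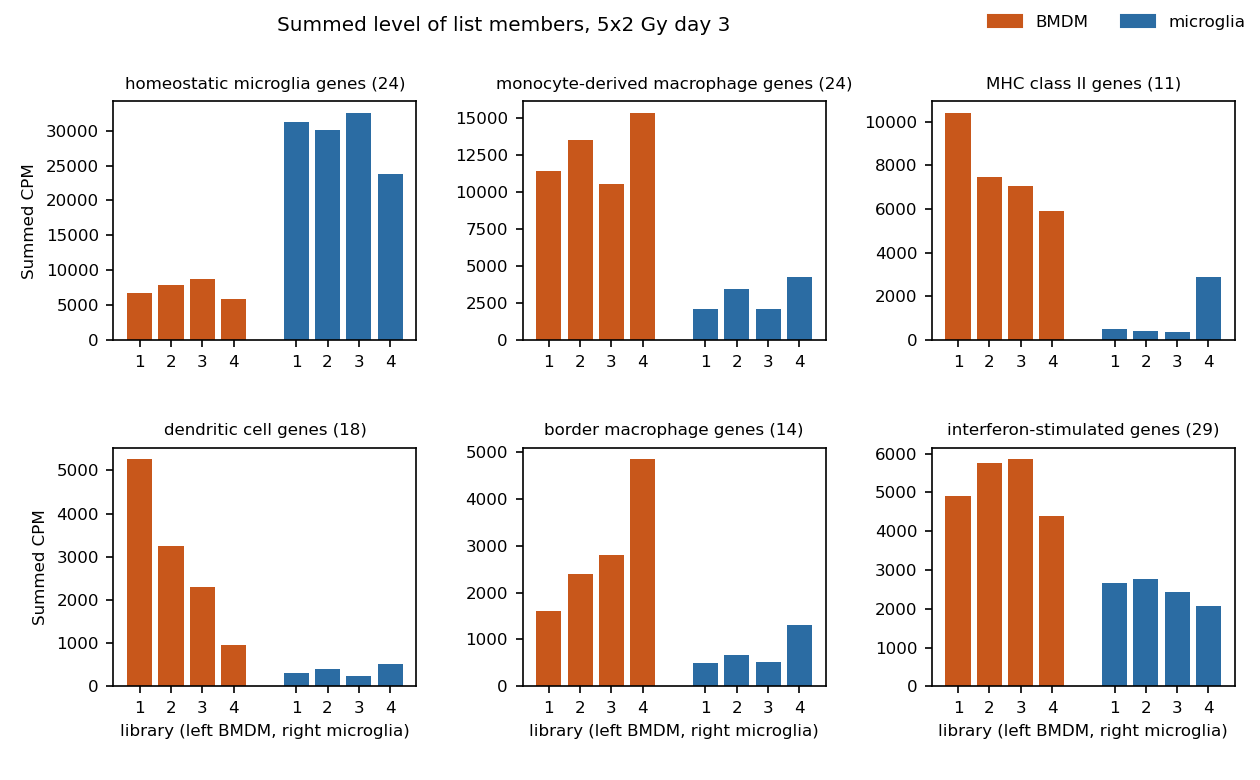
Summed CPM of the members of 6 gene lists in each library of 5x2 Gy day 3, with the 4 BMDM libraries left of the 4 microglia libraries and the number of genes in brackets. BMDM bars are lower for the homeostatic list and higher for the other 5, dendritic cell genes decline from 5264 CPM in BMDM library 1 to 954 CPM in library 4 while border macrophage genes are highest there, and microglia library 4 is the highest of its group for MHC class II genes, at 2892 CPM.

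Genes of border macrophages, the long-lived macrophages of the meninges and perivascular spaces, had the opposite order among the BMDM libraries. Their summed level was 1611, 2396, 2792 and 4847 CPM in BMDM and 492, 672, 524 and 1302 CPM in microglia. Of 14 tested, 9 were higher in BMDM (median 2.99, and 4.20 without microglia library 4) and none lower. F13a1, the catalytic subunit of coagulation factor XIII, was at 191, 731, 641 and 1402 CPM in BMDM and at 9.96, 16.9, 12.4 and 62.3 CPM in microglia (4.86 ± 1.01, adjusted p = 0.000514). Cd163, a haemoglobin scavenger receptor, was at 2.79, 26.2, 27.4 and 34.8 CPM in BMDM and at 0.239 to 0.664 CPM in microglia (5.64 ± 1.13, adjusted p = 0.000324). BMDM library 1, the richest in dendritic cell genes, was the lowest for both.

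Ms4a7, a membrane protein of border and recruited macrophages, was even across BMDM at 472, 460, 642 and 602 CPM, against 29.8, 17.5, 16.7 and 74.9 CPM in microglia (3.97 ± 0.61, adjusted p = 1.04e-05). Cbr2, a carbonyl reductase, was at 8.61, 42.2, 52.4 and 126 CPM in BMDM against 1.66, 2.26, 2.07 and 5.45 CPM in microglia (4.30 ± 0.90, adjusted p = 0.000548, and 3.56 without BMDM library 4). Mrc1, the mannose receptor, was at 114, 240, 292 and 500 CPM in BMDM and at 45.2, 104, 55.3 and 200 CPM in microglia, with overlap and without a call (1.5 ± 0.81, adjusted p = 0.222). For F13a1 and Ms4a7 the log2 fold changes without microglia library 4 were 5.82 and 4.67.

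Of 18 genes of alternative activation and suppression, 7 were higher in BMDM, 1 was lower and 10 were not called, and the count of higher genes was 4 without microglia library 2 or 3. Tgfbi, a matrix protein induced by TGF-beta, was at 1717, 1430, 1284 and 3132 CPM in BMDM and at 46.4, 38.6, 41.3 and 589 CPM in microglia (3.40 ± 0.70, adjusted p = 0.000462, and 5.49 without microglia library 4). Socs3, an inhibitor of cytokine signalling, was the lower one, at 258 to 475 CPM in BMDM against 609 to 1503 CPM in microglia (-1.52 ± 0.32, adjusted p = 0.000672). Arg1, the arginase of alternatively activated macrophages, was at 20.6, 122, 29.1 and 864 CPM in BMDM and at 4.15, 20.6, 2.95 and 62.3 CPM in microglia. The 2 groups overlap and a single BMDM library, number 4, holds most of the transcript. Its log2 fold change of 3.52 ± 1.49 was not called (adjusted p = 0.109), was 1.34 without that library and 4.80 without microglia library 4, and was called with DESeq2 (adjusted p = 0.0377) and with a block for replicate numbers (3.01, adjusted p = 0.00797).

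Of 16 complement genes, 7 were lower in BMDM, 3 were higher and 6 were not called. The lower count was 5 to 7 when 1 library was left out, and 1 was higher without BMDM library 1 or microglia library 1 and none without microglia library 3. C1qa, a chain of the first complement component (ENSMUSG00000036887, chromosome 4, 136895917 to 136898803), was at 533, 713, 936 and 662 CPM in BMDM and at 2499, 2770, 2592 and 2108 CPM in microglia. The microglia libraries are close to each other, and none comes near the BMDM libraries. C1qa differed by -1.81 ± 0.24 (adjusted p = 1.5e-06), against -0.80 without irradiation, a difference of -1.01 ± 0.28 (adjusted p = 0.832). Mean levels in BMDM were 711 ± 168 CPM at day 3 and 1441 ± 605 CPM without irradiation (SD, n = 4 and 10), whereas those in microglia were 2492 ± 280 CPM at day 3 and 2486 ± 219 CPM without irradiation. The summed level of the complement list without irradiation was 4972 to 13037 CPM in BMDM, which overlapped 11351 to 13175 CPM in microglia. At day 3 it was at most 6991 CPM in BMDM. The part of this spread among unirradiated BMDM libraries in the C1qa values was not tested. C1qc, another chain, and the complement receptor chain Itgam had log2 fold changes of -1.69 ± 0.26 and -1.82 ± 0.25.

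Genes that microglia induce near amyloid plaques, called disease-associated, divided by gene. Of 22 tested, 8 were lower in BMDM and 3 higher, and the count of lower genes was 3 without BMDM library 1, 4 without BMDM library 2, and 5 without BMDM library 3 or microglia library 2. Without microglia library 3 there was 1 higher gene. Cd9, a tetraspanin, was at 278, 314, 273 and 123 CPM in BMDM against 890, 959, 856 and 447 CPM in microglia (-1.67 ± 0.27, adjusted p = 1.65e-05). Csf1, the growth factor of macrophages, was at 2.93 to 9.64 CPM in BMDM against 36.9 to 142 CPM in microglia (-3.92 ± 0.74, adjusted p = 0.000149). Cst7, a cysteine protease inhibitor, was at 45.4, 108, 111 and 48 CPM in BMDM against 504 to 900 CPM in microglia (-3.21 ± 0.70, adjusted p = 0.000934). Gpnmb, a transmembrane glycoprotein of lysosome-rich macrophages, stood against these, at 455, 413, 601 and 973 CPM in BMDM and at 8.71, 20.6, 14.7 and 127 CPM in microglia (3.83 ± 1.07, adjusted p = 0.00978, and 5.38 without microglia library 4).

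Apoe, the main lipid carrier of macrophages, was at 8102, 9671, 9149 and 8622 CPM in BMDM and at 10340, 11416, 6622 and 7008 CPM in microglia, so that the groups overlapped entirely. Its log2 fold change was 0.01 ± 0.22 (adjusted p = 0.99), and its sign changed with the scaling. Spp1, the matrix protein osteopontin, was at 651, 3846, 2806 and 1729 CPM in BMDM and at 4156, 7698, 3280 and 4146 CPM in microglia (-1.09 ± 0.67, adjusted p = 0.283), and with a block for replicate numbers the log2 fold change of -1.28 was called (adjusted p = 0.0133). Other lipid genes differed more. Pltp, the phospholipid transfer protein, was at 217 to 391 CPM in BMDM against 18.6 to 68.3 CPM in microglia (2.97 ± 0.50, adjusted p = 3.72e-05), and the fatty acid receptor Cd36 at 40.3 to 181 CPM in BMDM against 4.78 to 35.2 CPM in microglia (2.48 ± 0.65, adjusted p = 0.00608). Abca1, the cholesterol exporter, was lower at 413 to 653 CPM in BMDM against 815 to 1438 CPM in microglia (-1.2 ± 0.24, adjusted p = 0.000348). In all, 3 of 17 lipid handling genes tested were higher and 3 lower, against 7.92% and 7.4% of all genes. The lower count was 1 when BMDM library 1 or 3 was left out.

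Chemokine genes showed 4 of 19 higher in BMDM and 4 lower, against 7.92% and 7.4% of all genes. Ccl12, an attractant of monocytes, was at 126, 319, 348 and 178 CPM in BMDM and at 1224, 1198, 1029 and 781 CPM in microglia (-2.12 ± 0.36, adjusted p = 3.66e-05). Ccl3 and Ccl4, inflammatory chemokines, were at 210 to 325 and 287 to 420 CPM in BMDM against 778 to 1174 and 1060 to 1615 CPM in microglia (-1.86 ± 0.39 and -1.96 ± 0.43). Cxcl16, a scavenger and chemokine in 1 molecule, was higher at 649 to 965 CPM in BMDM against 305 to 409 CPM in microglia (1.24 ± 0.21, adjusted p = 3.77e-05). Ccl9 was at 342, 520, 242 and 1110 CPM in BMDM against 56.7, 104, 40.8 and 183 CPM in microglia (2.52 ± 0.51, adjusted p = 0.000364, and 1.93 without BMDM library 4).

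Of 14 chemokine receptor genes, 5 were higher in BMDM and 2 lower, and 1 was lower without BMDM library 1 or 2. Cxcr4, the receptor that holds cells in the marrow, was at 58.8, 71.1, 41.8 and 88 CPM in BMDM against 3.63, 10.1, 1.2 and 10.5 CPM in microglia (3.34 ± 0.49, adjusted p = 5.23e-06), and Cxcr3, a receptor for interferon-induced chemokines, at 8.08 to 20.3 CPM in BMDM against 0 to 2.46 CPM in microglia (4.15 ± 0.88, adjusted p = 0.000608, and 6.23 without microglia library 4). Integrin and selectin genes had 6 of 16 higher and 4 lower, Itga4, Itgal and Itgae among the higher and Itgam among the lower. Of 13 Fc receptor and Siglec genes 2 were higher and 3 lower, against 7.92% and 7.4% of all genes. Fcgr2b, the inhibitory Fc receptor, was at 411 to 745 CPM in BMDM against 137 to 268 CPM in microglia (1.42 ± 0.30, adjusted p = 0.000704), whereas the activating receptor Fcgr3 was at 180 to 345 CPM in BMDM against 486 to 639 CPM in microglia (-0.96 ± 0.20, adjusted p = 0.0006). Siglecg, an inhibitory lectin, was at 63.1, 52.6, 39.5 and 11.8 CPM in BMDM against 1.97, 0.871, 2.31 and 11.2 CPM in microglia (3.33 ± 0.62, adjusted p = 0.000122, and 4.59 without microglia library 4).

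Checkpoint and costimulation genes showed 3 of 16 higher in BMDM and 3 lower, against 7.92% and 7.4% of all genes. Cd40, the costimulatory receptor through which helper T cells license antigen-presenting cells, was at 116, 73.0, 52.7 and 34.2 CPM in BMDM and at 11.9, 8.19, 4.47 and 9.04 CPM in microglia (3.04 ± 0.57, adjusted p = 0.000147). Pdcd1lg2, which encodes the PD-1 ligand PD-L2, was at 32.8, 15.1, 7.50 and 6.91 CPM in BMDM and at 0.104, 0.523, 0.159 and 5.98 CPM in microglia (3.16 ± 0.80, adjusted p = 0.00418). Microglia library 4 came within 1 CPM of BMDM library 4, and without it the log2 fold change of Pdcd1lg2 was 5.82, against 2.52 without BMDM library 1 and an adjusted p of 0.0535 in the 8 libraries alone. Sirpa, the receptor for the signal CD47 that restrains phagocytosis, was lower at 421 to 679 CPM in BMDM against 868 to 1239 CPM in microglia (-0.98 ± 0.24, adjusted p = 0.00276).

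Of 20 TGF-beta pathway genes 4 were lower and 1 higher in BMDM, against 7.4% and 7.92% of all genes. The lower count was 2 without any 1 of BMDM libraries 1, 2 and 3, and the higher gene was lost in 6 of the 8 fits that left out 1 library. Smad7, the inhibitor that TGF-beta induces, was at 8.87 to 21.8 CPM in BMDM against 34.1 to 74.4 CPM in microglia (-1.72 ± 0.36, adjusted p = 0.000578). Angiogenesis and matrix genes showed 4 of 19 tested higher and 3 lower. Vegfa, the vascular growth factor, was at 282, 283, 150 and 178 CPM in BMDM and at 32.2, 27.9, 14.3 and 23.2 CPM in microglia (3.20 ± 0.66, adjusted p = 0.00046). Thbs1, an inhibitor of angiogenesis that activates TGF-beta, was at 221, 342, 300 and 1485 CPM in BMDM against 47.2, 48.2, 18.3 and 73.9 CPM in microglia (3.65 ± 0.74, adjusted p = 0.000373, and 2.62 without BMDM library 4). Mmp2, a gelatinase, was at 4.50 to 12.2 CPM in BMDM against 84.2 to 112 CPM in microglia (-3.60 ± 0.59, adjusted p = 2.19e-05), and Hbegf, an EGF receptor ligand, at 3.67, 3.63, 2.29 and 6.45 CPM in BMDM against 21.7, 26.8, 20.4 and 73.3 CPM in microglia (-3.14 ± 0.66, adjusted p = 0.00055, and -2.51 without microglia library 4).

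More inflammatory genes were called lower than higher in BMDM, although the median of the list was close to that of all genes. Of 21 inflammatory and NF-kB genes, 7 were lower and 3 higher, against 7.4% and 7.92% of all genes. Their median was -0.21, against -0.20 over all genes. The higher count was 1 without BMDM library 1 or without microglia library 3 or 4. Tnf, the inflammatory cytokine (ENSMUSG00000024401, chromosome 17, 35199381 to 35202007), was at 87.5, 121, 103 and 122 CPM in BMDM and at 830, 1031, 911 and 1059 CPM in microglia. Both groups are tight and lie far apart. The log2 fold change was -3.14 ± 0.60 (adjusted p = 0.000189), against -0.97 without irradiation, where Tnf averaged 348 ± 278 CPM in BMDM and 686 ± 350 CPM in microglia (SD, n = 10 each). The difference of -2.17 ± 0.67 between the 2 comparisons was not called (adjusted p = 0.832).

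Il1a, which encodes interleukin 1 alpha, was at 96.0, 323, 124 and 51.0 CPM in BMDM and at 2420, 2213, 1197 and 880 CPM in microglia (-3.50 ± 0.69, adjusted p = 0.000297, and -4.16 without BMDM library 2). Il1b, its partner, did not share that pattern, at 2893, 3524, 1414 and 1756 CPM in BMDM and 2598, 2915, 1189 and 1234 CPM in microglia (0.27 ± 0.35, adjusted p = 0.647). In both groups libraries 1 and 2 were high and 3 and 4 low. Nfkbiz, a nuclear regulator of NF-kB, was at 185 to 556 CPM in BMDM against 1349 to 2344 CPM in microglia (-2.24 ± 0.34, adjusted p = 9.68e-06), and the adhesion molecule Icam1 at 123 to 260 CPM in BMDM against 608 to 1272 CPM in microglia (-2.27 ± 0.36, adjusted p = 1.72e-05).

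Immediate early genes, which respond to signals within minutes and also to the handling of cells, were lower in BMDM for 8 of 23 and higher for none (median -0.82, against -0.20 over all genes), with 5 lower when BMDM library 2 was left out. Egr1, a zinc finger factor, was at 675, 492, 995 and 614 CPM in BMDM and at 3854, 3063, 3907 and 2430 CPM in microglia (-2.26 ± 0.44, adjusted p = 0.000262). Jun, a subunit of AP-1, was at 285 to 631 CPM in BMDM against 1315 to 1951 CPM in microglia (-1.99 ± 0.41, adjusted p = 0.000505). Ier5 and Ier2, early response genes, had log2 fold changes of -1.42 ± 0.24 and -1.47 ± 0.28 without overlap between the groups. The summed level of this list was 12407 to 15731 CPM in BMDM and 20613 to 28142 CPM in microglia, and its part in the inflammatory genes was not tested.

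Interferon-stimulated genes were called in 1 direction alone. Of 29 tested, 18 were higher in BMDM at day 3 and none lower (median 1.02), against 16 higher (median 0.50) without irradiation. The count was 14 to 19 when 1 library was left out. The difference between the 2 comparisons was positive for 27 of 29, against 7895 of all 19382 genes tested. It had an unadjusted p under 0.05 for 7, against 5.91% of all genes, and none passed after adjustment. The summed level of the list was 4917, 5759, 5862 and 4405 CPM in BMDM and 2661, 2778, 2424 and 2081 CPM in microglia, against medians of 4387 CPM in BMDM and 3230 CPM in microglia without irradiation.

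Irf7, the factor that amplifies interferon production (ENSMUSG00000025498, chromosome 7, 141262706 to 141266481), was at 506, 487, 607 and 403 CPM in BMDM and at 115, 145, 111 and 116 CPM in microglia. The groups are separated by a wide gap, with 3 of the microglia libraries nearly equal. Irf7 differed by 2.04 ± 0.33 (adjusted p = 1.82e-05), against 0.99 without irradiation, a difference of 1.05 ± 0.38 (adjusted p = 0.832). Mean Irf7 was 501 ± 84.0 CPM in BMDM at day 3 and 474 ± 188 CPM without irradiation, whereas in microglia it was 122 ± 15.4 CPM at day 3 and 235 ± 102 CPM without irradiation (SD, n = 4 and 10).

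Oas3, a sensor of double-stranded RNA, was at 72.6, 44.3, 56.5 and 26.5 CPM in BMDM and at 3.73, 8.54, 3.99 and 5.85 CPM in microglia (3.17 ± 0.50, adjusted p = 1.41e-05). Ifi204, a DNA sensor, was at 133 to 220 CPM in BMDM against 22.0 to 51.0 CPM in microglia (2.21 ± 0.36, adjusted p = 2.46e-05), and Stat2, which carries the interferon signal, at 129 to 161 CPM in BMDM against 73.8 to 101 CPM in microglia (0.78 ± 0.15, adjusted p = 0.000166). Isg15, a ubiquitin-like modifier, was at 97.2, 121, 104 and 74.1 CPM in BMDM against 42.2, 50.5, 39.0 and 39.7 CPM in microglia (1.21 ± 0.34, adjusted p = 0.00978). Ifit3, which blocks translation of foreign RNA, did not follow, with 164, 248, 291 and 125 CPM in BMDM overlapping 168, 184, 169 and 137 CPM in microglia (0.33 ± 0.29, adjusted p = 0.484).

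Interferon acts on such genes through the response element ISRE, whose core repeats GAAA after any 2 bases. The stretches before the RefSeq starts of Isg15 (chr4:156200819-156200938, minus strand), Oas3 (chr5:120777660-120777779, minus strand) and Ifit3 (chr19:34583369-34583528, plus strand) on GRCm38.p6 are printed 5′ to 3′ on the strand of the gene, with matches to the core or to its reverse complement, TTTC repeated after any 2 bases, in capitals, because 2 of these genes differed between the lineages and 1 did not. Overlapping matches in Isg15 form 1 run of capitals.
Isg15: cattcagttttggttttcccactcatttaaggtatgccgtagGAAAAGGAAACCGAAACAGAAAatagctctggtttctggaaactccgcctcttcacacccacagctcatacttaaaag
Oas3: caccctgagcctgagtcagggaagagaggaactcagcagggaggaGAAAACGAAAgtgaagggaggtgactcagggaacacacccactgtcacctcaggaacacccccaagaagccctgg
Ifit3: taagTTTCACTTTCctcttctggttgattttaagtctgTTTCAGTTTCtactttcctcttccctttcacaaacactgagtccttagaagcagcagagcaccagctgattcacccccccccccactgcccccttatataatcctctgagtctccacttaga
All 3 stretches hold the core, Ifit3 included. On either strand of the 250 bases before the start it was found in 10 of the 20 listed genes with a promoter entry and in 3.46% of 27025 genes.

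**Figure D4:**
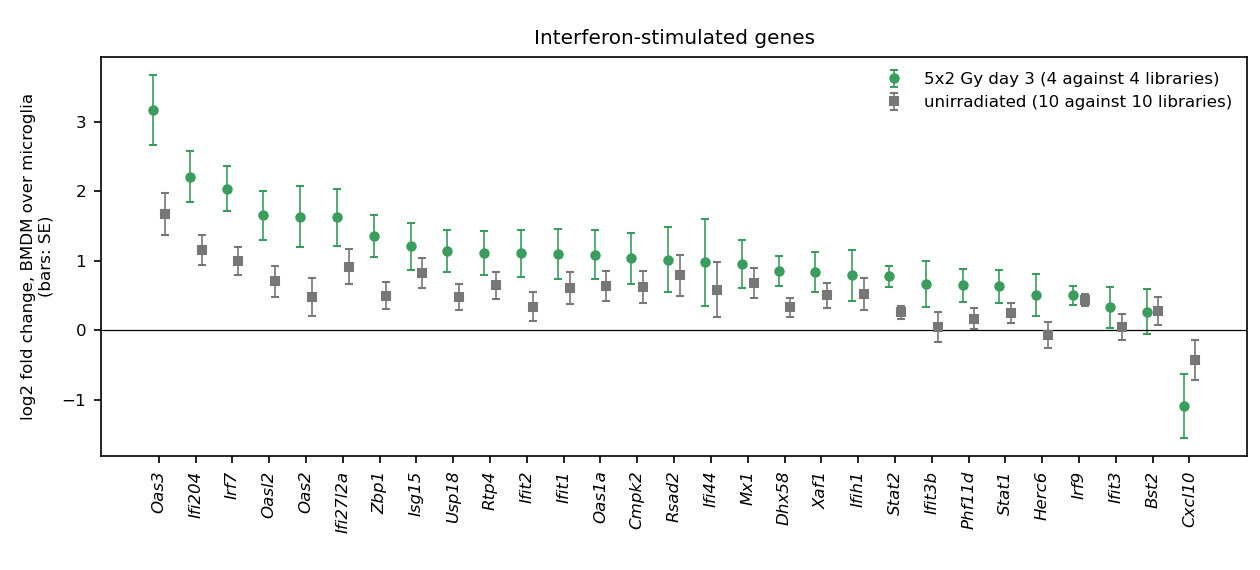
Log2 fold change of BMDM over microglia, with bars of 1 SE, for 29 interferon-stimulated genes at 5x2 Gy day 3 (circles, 4 against 4 libraries) and without irradiation (squares, 10 against 10 libraries), ordered by the day 3 value. The circles lie above 0 for all but Cxcl10 and above the squares for 27 of 29, with Oas3 highest at 3.17, and the bars of many pairs overlap.

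The gene whose lineage difference itself departed from that without irradiation is a p53 target. Cdkn1a, which encodes the cell cycle inhibitor p21 (ENSMUSG00000023067, chromosome 17, 29090976 to 29100727), was at 683, 715, 568 and 700 CPM in the BMDM libraries of day 3 and at 1591, 1473, 1159 and 1250 CPM in the microglia libraries. Every BMDM library lay below every microglia library, and all 4 BMDM libraries were close to each other. The log2 fold change was -1.04 ± 0.24 (adjusted p = 0.00156). Without irradiation the order was the opposite, with 641 ± 168 CPM in BMDM and 422 ± 110 CPM in microglia (SD, n = 10 each), a log2 fold change of 0.60 ± 0.15 (adjusted p = 0.00192). It was the only gene called in opposite directions by the 2 comparisons.

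The difference of differences for Cdkn1a was -1.64 ± 0.28 (adjusted p = 0.015). The value was nearly the same in each fit that left out 1 library, from -1.72 to -1.5, but the adjusted p ran from 0.00088 to 0.30, and the call was lost without any 1 of the 4 BMDM libraries of day 3, microglia libraries 1 or 2 of day 3, small-stage BMDM libraries 1 or 3, or small-stage microglia library 2. It was also lost against the small stage alone (adjusted p = 0.253) and without the 4 libraries with over 30000 genes detected (-1.48, adjusted p = 0.462). DESeq2 called it with an adjusted p of 0.000256.

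Most of the p53 target list did not pass the test. Of 26 tested, Cdkn1a included, 5 were lower in BMDM at day 3 and 2 higher (median -0.76), against 4 lower and 5 higher without irradiation (median -0.16). For 13 the BMDM libraries lay below the microglia libraries, as for 12.9% of all genes. The difference between the comparisons was negative for 22 of 26, against 11487 of all 19382 genes tested. It had an unadjusted p under 0.05 for 7, Cdkn1a included, against 5.91% of all genes. The counts depended on single libraries, with 2 lower without BMDM library 2, 3 without BMDM library 1 or 4 or microglia library 1 and 7 without microglia library 4, and no gene higher without BMDM library 1 or microglia library 3 or 4. A single gene was higher without BMDM library 2 or microglia library 2.

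Ccng1, a cyclin induced by p53, was at 210, 295, 231 and 213 CPM in BMDM and at 457, 450, 438 and 320 CPM in microglia (-0.81 ± 0.21, adjusted p = 0.0058), with the groups just apart. Without irradiation it averaged 123 ± 23.7 CPM in BMDM and 131 ± 25 CPM in microglia. Phlda3, an inhibitor of Akt, was at 5.34, 8.36, 6.86 and 3.91 CPM in BMDM and at 22.4, 19.7, 28.6 and 9.23 CPM in microglia (-1.71 ± 0.59, adjusted p = 0.041), against 1.44 ± 0.99 CPM in BMDM and 1.3 ± 0.96 CPM in microglia without irradiation. Its call was lost in 7 of the 8 fits without 1 library (adjusted p = 0.0621 to 0.124) and with a block for the day 3 pairs (adjusted p = 0.0564), and it was kept without microglia library 4. Mdm2, the ubiquitin ligase that removes p53, was at 157, 179, 139 and 146 CPM in BMDM and at 338, 279, 223 and 157 CPM in microglia, of which library 4 overlaps the BMDM range (-0.69 ± 0.28, adjusted p = 0.103, and -0.85 with an adjusted p of 0.0456 without that library).

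Sesn2, a sestrin of the stress response, was at 55.4 to 94.1 CPM in BMDM and at 180, 171, 132 and 86.8 CPM in microglia (-1.02 ± 0.27, adjusted p = 0.00706, and 0.0567 without BMDM library 2), where BMDM library 1 overlaps microglia library 4. Bbc3, the cell death gene known as Puma, was at 6.50 to 8.85 CPM in BMDM and 12.6 to 24.1 CPM in microglia (-1.22 ± 0.38, adjusted p = 0.0242), a call lost without BMDM library 1, 2 or 4 or microglia library 1 (adjusted p = 0.0583 to 0.0903) and with a block for replicate numbers (0.0553). The 2 higher targets were the death receptor Fas and Pmaip1, the cell death gene known as Noxa. Fas was at 29.2, 19.3, 9.35 and 13.4 CPM in BMDM against 4.07 to 6.43 CPM in microglia (1.76 ± 0.54, adjusted p = 0.0197), and Pmaip1 at 637, 504, 488 and 191 CPM in BMDM against 275, 250, 158 and 194 CPM in microglia (1.05 ± 0.36, adjusted p = 0.0405). Both were also higher in BMDM without irradiation, by 2.14 and 1.84. Fas was not called without BMDM library 1 or microglia library 3 or 4 (adjusted p = 0.0551 to 0.0871). The call of Pmaip1 went without BMDM library 1 or 2 or microglia library 2, 3 or 4 (0.0597 to 0.131) and with a block for the day 3 pairs (0.0686).

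**Figure D5:**
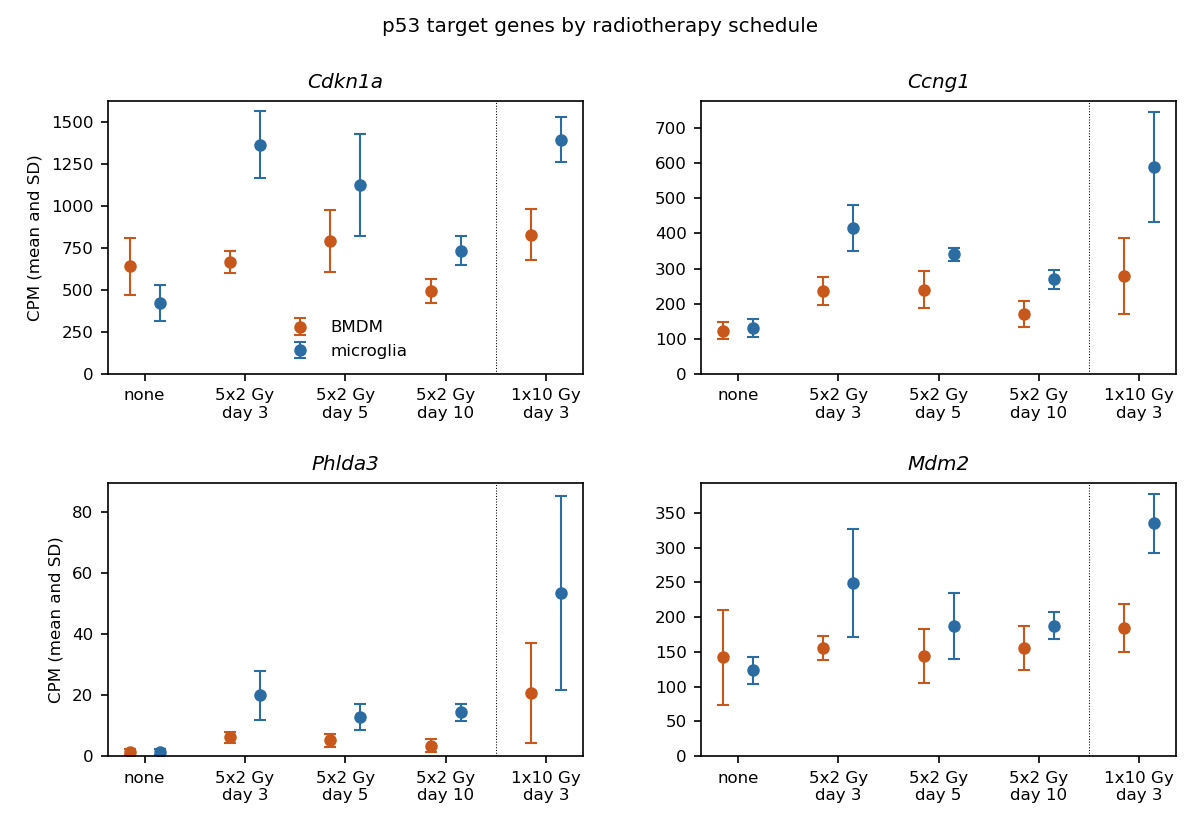
Mean CPM with SD of 4 p53 target genes in BMDM and microglia without irradiation (10 libraries each), at 5x2 Gy day 3, 5 and 10 (4, 4 and 3 each) and, right of the dotted line, at 1x10 Gy day 3 (3 each). Cdkn1a is higher in BMDM without irradiation and lower in BMDM in all 4 irradiated groups, and Ccng1 and Phlda3 are close without irradiation and lower in BMDM after it.

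Proliferation genes hardly separated the lineages. Of 24 mitosis genes 1 was higher in BMDM, Kif23, a motor of cytokinesis, at 12.6, 9.88, 9.71 and 3.46 CPM in BMDM against 1.14, 1.22, 1.67 and 2.86 CPM in microglia (2.35 ± 0.74, adjusted p = 0.0232). The call did not hold without BMDM library 1 or microglia library 1, 2 or 3 (adjusted p = 0.0592 to 0.0707), and without BMDM library 3 a single mitosis gene was lower. None of 27 DNA replication genes was called in either direction by edgeR's quasi-likelihood test. Mki67, the proliferation marker, was at 23.5, 14.8, 21.4 and 7.04 CPM in BMDM and at 6.02, 5.14, 7.26 and 23.8 CPM in microglia (0.65 ± 0.62, adjusted p = 0.523). Microglia library 4, the highest of all 8, also had the highest summed level of mitosis genes, 260 CPM, against 66.8 to 182 CPM in BMDM and 68.0 to 115 CPM in the other microglia libraries. Without it the log2 fold change of Mki67 was 1.44 (adjusted p = 0.155). The median of the mitosis genes was then 0.10 instead of -0.40, and that of the DNA replication genes 0.16 instead of -0.38. Of 22 glycolysis and hypoxia genes 3 were higher and 1 lower, against 7.92% and 7.4% of all genes. The higher count was 1 when BMDM library 4 or microglia library 1 or 2 was left out. Pfkp, a phosphofructokinase, was at 371, 215, 108 and 142 CPM in BMDM against 9.13, 8.01, 6.46 and 42.9 CPM in microglia (3.64 ± 0.65, adjusted p = 7.9e-05, and 4.73 without microglia library 4). Hk2, a hexokinase, was lower at 44.8 to 106 CPM in BMDM against 167 to 217 CPM in microglia (-1.40 ± 0.34, adjusted p = 0.00309).

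Few markers of other cells were called, and their counts are read against 7.92% of all genes called higher and 7.4% lower. T and NK cell markers summed to 186, 3.97, 26.5 and 0.196 CPM in BMDM and to 1.31 to 5.08 CPM in microglia, with 1 of 9 tested called, Nkg7 at 48.3, 0.253, 9.71 and 0 CPM in BMDM against 0.0871 to 0.664 CPM in microglia (5.19 ± 1.83, adjusted p = 0.0471). BMDM library 1, which led the dendritic cell genes, led these as well, and without it the log2 fold change of Nkg7 was 3.09 (adjusted p = 0.275). The Nkg7 call was also lost without any 1 microglia library (adjusted p = 0.0773 to 0.116) and with either block (0.448 and 0.475), while 2 or 3 of these markers were called without BMDM library 2, 3 or 4. B cell markers summed to 76.3, 24.5, 15.7 and 14.6 CPM in BMDM and to 5.75 to 17.8 CPM in microglia, with 1 of 8 called, Cd79a (4.13 ± 1.41, adjusted p = 0.0396), which was at 13.6, 2.70, 0.857 and 1.04 CPM in BMDM and at most 0.598 CPM in microglia. It was lost without BMDM library 1 (2.60, adjusted p = 0.243), without microglia library 1, 2 or 3 (0.0926 to 0.113) and with either block (0.127 and 0.125), and was 5.11 without microglia library 4. Without BMDM library 3 or microglia library 1, 2 of the B cell markers were called.

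Neutrophil markers summed to 16.2, 51.1, 28.1 and 70.0 CPM in BMDM and to 5.66 to 18.1 CPM in microglia, and of 9 tested 1 was called, the collagenase Mmp8 at 4.86, 9.71, 6.21 and 41.9 CPM in BMDM against 0.319 to 1.66 CPM in microglia (3.98 ± 1.21, adjusted p = 0.0186). Without BMDM library 4 it was 2.80 (adjusted p = 0.122), and without microglia library 2 or 3 its adjusted p was 0.0583 and 0.0681, while 2 neutrophil markers were called without BMDM library 1. Epithelial markers, which tumour cells of the lung can express, summed to 145, 96.5, 114 and 16.4 CPM in BMDM and to 4.98, 1.92, 0.159 and 37.8 CPM in microglia, with 1 of 4 tested higher, and 2 without microglia library 4. Plasmacytoid dendritic cell markers summed to 1160, 936, 1035 and 692 CPM in BMDM and to 2214, 2035, 2154 and 1664 CPM in microglia. Of 10 tested 1 was higher and 2 lower, among these Siglech, which the homeostatic list holds too, and 1 was lower without BMDM library 1 or 3. Of the astrocyte markers 2 of 10 were lower, with 1 left in 7 of the 8 fits without 1 library, microglia library 4 being the exception. Slc1a3, a glutamate transporter, was at 2.15 to 14.1 CPM in BMDM against 171 to 227 CPM in microglia (-4.70 ± 0.72, adjusted p = 1.04e-05). It made up most of the astrocyte sums of microglia, which were 217 to 305 CPM, against 53.1 to 119 CPM in BMDM. The BMDM libraries lay below the microglia libraries for 2 of the 10 markers and above for 2, against 12.9% and 10.9% of all genes. None of 10 neuron markers was called, and their sums stayed at 14.9 CPM or less.

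Oligodendrocyte markers had 2 of 6 tested higher, 1 of them without microglia library 1, and 1 lower. The median log2 fold change was -0.65, with 2 positive and 4 negative. Their summed level was 335, 305, 334 and 212 CPM in BMDM and 167, 215, 242 and 186 CPM in microglia. Mbp, the myelin basic protein, was at 103 to 167 CPM in BMDM against 42.4 to 81.6 CPM in microglia (1.10 ± 0.28, adjusted p = 0.00497). Of 9 endothelial markers 1 was higher, Ly6c1, at 9.43 to 24.8 CPM in BMDM against 0.718 to 1.93 CPM in microglia (3.83 ± 0.97, adjusted p = 0.0042). The summed level of the endothelial list was 184, 132, 93.3 and 96.2 CPM in BMDM and 194, 266, 113 and 193 CPM in microglia. The part of these cell types in the differences described above was not tested.

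In the other irradiated groups the genes called at day 3 almost all kept their direction. Of the 2970 genes, 2938 had the same sign at 5x2 Gy day 5, 2950 at 5x2 Gy day 10 and 2923 at 1x10 Gy day 3. They were also called for 1906, 766 and 1368, in comparisons that called 12.9%, 4.16% and 8.8% of all genes with 4, 3 and 3 libraries in each group. P2ry12 had log2 fold changes of -3.10 ± 0.43, -2.39 ± 0.48 and -2.49 ± 0.48 in these 3 groups, and Itga4 of 4.52 ± 0.53, 3.75 ± 0.59 and 4.95 ± 0.63. Ccr2 (5.01, 4.61 and 6.11), Cd74 (3.38, 3.18 and 3.71) and Flt3 (4.32, 4.05 and 4.61) were called in each of them.

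Cdkn1a was at 793 ± 185 CPM in BMDM against 1127 ± 305 CPM in microglia at 5x2 Gy day 5, at 494 ± 72.2 CPM in BMDM against 736 ± 85.5 CPM in microglia at day 10 and at 831 ± 152 CPM in BMDM against 1396 ± 134 CPM in microglia at 1x10 Gy day 3 (SD, n = 4, 3 and 3 each). The mean was lower in BMDM in all 3, with log2 fold changes of -0.51 ± 0.24, -0.57 ± 0.27 and -0.75 ± 0.27 that were not called (adjusted p = 0.168, 0.305 and 0.078). Ccng1 was called at 1x10 Gy day 3 (-1.08 ± 0.25, adjusted p = 0.00339), where it averaged 279 ± 108 CPM in BMDM and 590 ± 156 CPM in microglia. Irf7 differed by 1.58 ± 0.32 at 5x2 Gy day 5 (adjusted p = 0.000563), by 0.69 ± 0.37 at day 10 (adjusted p = 0.393) and by 1.00 ± 0.37 at 1x10 Gy day 3 (adjusted p = 0.0804), and whether these values differ from each other was not tested.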

How the data were processed

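The deposited table holds whole-number read counts for 49585 genes in 108 libraries of sorted cells. The submitters' processing notes list TopHat2 2.0.14, HTSeq and FastQC and DESeq2 1.18.1, with no role or order, and name GRCm38 as the build. For the annotation release and the strand of counting, the sources used here give nothing, so overlapping genes, antisense partners and near-identical paralogs may share reads. Of the gene IDs, 49326 matched GENCODE M21, which gave symbols and coordinates, and promoters came from RefSeq (GRCm38.p6). The 37 mitochondrial genes were at 0 in every library.

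The 48 BMDM and microglia libraries from tumour-bearing brains, with total counts of 7059127 to 18099551, were fitted together with edgeR 4.0.16 (R 4.3.3) using filterByExpr defaults (minimum count 10, minimum total 15), TMM scaling, 1 mean per group, and the quasi-likelihood F-test. Benjamini-Hochberg adjustment ran over all 19382 genes tested, with a threshold of 0.05. CPM values use TMM-scaled library sizes, and fold changes are BMDM over microglia on the log2 scale. Each SE was calculated back from the test, as the absolute log2 fold change divided by the square root of its F statistic.

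Genes are named by these rules: the 10 largest called changes each way (mean of at least 10 CPM in the higher group, no overlap, no gene models), the 4 called members per list that had the lowest adjusted p, or fewer, genes called in the difference of differences, and a set of named markers. Tgfbr1, S100a4, Fn1, Runx3, Bhlhe41, Zbtb46, H2-Eb1, Mrc1, Ccl3, Ccl4, Il1a, Il1b, Isg15, Bbc3, Pmaip1, H2-Eb2, H2-DMb1, H2-Ob and Cxcl10 were added after their values were seen. The members and lists were chosen with earlier results of these data known. Alternatives were the 8 libraries alone, DESeq2 1.42.0, RLE scaling, other filters, single stages, a replicate block and leaving out each library, and, chosen after seeing the data, limma 3.58.1 with voom quality weights, a term for ribosomal protein share, leaving out 4 libraries with over 30000 genes detected, and a block for the day 3 pairs alone. Same-numbered BMDM and microglia libraries of day 3 deviated together from their group means (r = 0.399, 0.347, 0.515 and 0.443 across 9228 genes), each best with its own number, which the data show and the labels do not state. Values of 1 gene that the rules name are not reported here.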

Additional observations from a re-analysis of the deposited data

Results flagged for a closer look

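Across 125 named genes and the 2 groups of 4 libraries, 34 of 250 sets of values had a library far from the other 3 of its group. Microglia library 4 accounted for most of them. It was high for Ccr2 at 221 CPM, S100a4 at 1.06, Ahr at 17.1, Runx3 at 16.5, Cd74 at 1724, H2-Oa at 18.6, H2-Aa at 91.6, H2-Eb1 at 538, Flt3 at 25.2, Ccr7 at 48.8, F13a1 at 62.3, Cbr2 at 5.45, Gpnmb at 127, Tgfbi at 589, Pdcd1lg2 at 5.98, Cxcr3 at 2.46, Itgae at 28.6, Siglecg at 11.2, Hbegf at 73.3, Mki67 at 23.8 and Pfkp at 42.9 CPM. It was low for Gpr34 at 736 CPM and Ccng1 at 320 CPM. All of the genes for which it was high, apart from Hbegf, were higher in BMDM or had a higher mean there at day 3.

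BMDM library 4 was high for Fn1 at 1502 CPM, Arg1 at 864, Thbs1 at 1485 and Mmp8 at 41.9 CPM and low for Gcsam at 11.7 CPM. BMDM library 1 was high for Ccl22 at 382 and Cd79a at 13.6 CPM, and BMDM library 3 for Sall3 at 1.21 CPM. Microglia library 1 was high for Tlr11 at 0.415 and Gramd2 at 0.622 CPM, and microglia library 2 for Irf7 at 145 CPM. Chance alone sets a library apart in some groups of this size.

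The lineage difference of Cdkn1a at 5x2 Gy day 3 departed from that without irradiation by -1.64 on the log2 scale in the direct test.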

How the results depend on the processing

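Against 1536 higher and 1434 lower genes at day 3, limma voom gave 2642 and 2787, and leaving out 1 library gave 1145 to 1601 and 920 to 1318. Without irradiation, against 2752 higher and 2593 lower, the large stage alone gave 1548 and 603 and leaving out 1 library 2223 to 2855 and 2216 to 2863. Genes called the same way in both comparisons numbered 1470 with the large stage alone and 4050 with voom, against 2596. The direct test of the difference called 3 genes with DESeq2, 2 with voom, 2 with the large stage alone, none (0) with the small stage alone, 0 without the 4 libraries of over 30000 genes, and 0 to 1 without single libraries, against 1. The cause of these shifts was not tested. With the replicate block 1665 genes were higher and 1478 lower at day 3, and with a block for the day 3 pairs alone 1502 and 1392. Apart from the calls named with a block in the report, neither block changed a call of a named gene.

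Of 2230 values of 125 named genes under 18 kinds of alternative, 2152 kept direction and side of the threshold, 61 lost the call, 12 gained it and 5 changed sign. The sign changes were those of Apoe, at -0.0098 with DESeq2 or RLE scaling, -0.0073 over genes of 10 CPM or more, and -0.11 and -0.09 without microglia library 3 or 4, in a range up to 0.15 when single libraries were left out.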
